A study of Mus musculus with 8 samples.

Results

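The genes of the perineuronal nets and the diffuse brain matrix were followed in the cortex of a mouse model of tauopathy. They are the 9 genes Acan, Bcan, Ncan, Vcan, Hapln1, Hapln2, Hapln4, Tnr and Has3, chosen by symbol from the 54532 genes of the count table, and all 9 had enough counts to be tested. RNA was sequenced from the cortex of 8 mice of the C57BL/6 strain at 8 months of age, 1 library per mouse. In 4 of them, PS19 mice, the mouse prion protein promoter drives human tau with the P301S change. The other 4, Adrb1+/m;PS19 mice, have this transgene too and in addition 1 knock-in allele, Adrb1-A187V, of the β1-adrenergic receptor gene, a change linked to natural short sleep. Both genotypes thus carry the transgene, and mice without it were not analysed here. The comparison asks whether the receptor mutation goes with a change of matrix gene expression on the PS19 background.

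The brain matrix is built on hyaluronan, a long sugar chain extruded at the cell surface by hyaluronan synthases such as that encoded by Has3. Lecticans, the chondroitin sulphate proteoglycans encoded by Acan (aggrecan), Bcan (brevican), Ncan (neurocan) and Vcan (versican), bind hyaluronan at one end and tenascin-R, encoded by Tnr, at the other, and link proteins of the Hapln family hold the lecticans on the chain. The dense form of this matrix, the perineuronal net, surrounds mainly parvalbumin interneurons in the cortex, with aggrecan as its most selective core protein, whereas Hapln2 belongs to the nodes of Ranvier of myelinated axons.

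Of the 9 genes, 6 form pairs in which a lectican gene has a link protein gene as a neighbour. In the deposited coordinates (GRCm38), Hapln4 (chromosome 8, 70083457 to 70090862) ends 2222 bases from Ncan (70093085 to 70120873), and both point towards each other. Bcan (chromosome 3, 87987531 to 88000230) and Hapln2 (88021750 to 88027583) share a strand and are 21519 bases apart, and Hapln1 (chromosome 13, 89539796 to 89611652) ends 43659 bases from Vcan (89655312 to 89742509). Acan (chromosome 7, 79053483 to 79115099) also has a link protein gene beside it, Hapln3, only 2 bases away and on the other strand. Tnr (chromosome 1, 159523769 to 159931729) and Has3 (chromosome 8, 106870242 to 106884566) have no such partner. The table's annotation places the end of Has3 within 704 bases of shared sequence with Chtf8, a gene on the opposite strand with 8360 counts over the 8 mice; the strand setting of the counting is not given in the sources used here, so Has3 is the member whose counts are least certain.

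The 250 bases before the RefSeq start site were read for 7 of the 9 genes (GRCm38.p6). They had 2 to 26 CG dinucleotides, where the median of 32851 promoters of the same length was 6. The sequences of Acan, Bcan and Tnr are shown because they span this range; each is written 5′ to 3′ on the strand of the gene, with every CG in capitals.
Acan, chr7:79052976-79053225, plus strand: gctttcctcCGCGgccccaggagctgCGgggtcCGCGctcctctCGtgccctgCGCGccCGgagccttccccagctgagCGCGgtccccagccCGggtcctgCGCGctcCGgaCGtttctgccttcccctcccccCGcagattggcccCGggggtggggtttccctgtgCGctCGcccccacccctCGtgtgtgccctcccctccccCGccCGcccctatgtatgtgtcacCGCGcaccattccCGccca
Bcan, chr3:88000357-88000606, minus strand: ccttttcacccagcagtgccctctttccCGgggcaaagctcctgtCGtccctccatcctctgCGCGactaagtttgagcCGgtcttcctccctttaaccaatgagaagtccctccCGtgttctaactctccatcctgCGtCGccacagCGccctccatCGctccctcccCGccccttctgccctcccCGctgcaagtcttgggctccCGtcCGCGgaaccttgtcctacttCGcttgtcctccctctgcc
Tnr, chr1:159523519-159523768, plus strand: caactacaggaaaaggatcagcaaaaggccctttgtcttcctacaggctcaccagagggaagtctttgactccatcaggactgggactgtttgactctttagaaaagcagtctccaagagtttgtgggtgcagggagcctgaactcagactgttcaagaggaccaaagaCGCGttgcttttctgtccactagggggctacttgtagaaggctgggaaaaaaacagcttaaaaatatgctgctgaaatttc
The Acan window had 26 CG, a number that 9.59% of all promoters reached, the Bcan window had 16, reached by 25.4%, and the Tnr window had 2, reached by 81.2%. Acan was the least and Bcan the most abundant member per length, as given below. For these 3 genes the number of CG and the level in this tissue thus did not run in the same order. The RefSeq starts of Acan and Bcan lie outside the bounds of these genes in the count table (79053483 and 88000230).

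The libraries held 14653222 to 21223754 counts per mouse, and mitochondrial genes took 4.58% to 5.31% of them. Markers of the tissue were present in all mice, with 654 to 1586 counts of Pvalb (parvalbumin) and 16244 to 22791 of Slc17a7, the vesicular glutamate transporter of cortical excitatory neurons. The mice differed in other cell types. Gfap, the filament protein of reactive astrocytes, ran from 182 to 838 CPM (counts scaled to a library of fixed, normalized size), and Ttr, the transthyretin of the choroid plexus, from 11.5 to 526.5 CPM, highest in PS19 mouse m668 and Adrb1+/m;PS19 mouse m658. The score of 7 basal forebrain cholinergic markers, the mean of their log2 CPM around each gene's mean, lay between -0.87 and -0.10 in PS19 mice and between 0.16 and 0.64 in Adrb1+/m;PS19 mice. Their 7 genes, Chat among them, were all higher in Adrb1+/m;PS19 mice at an unadjusted p under 0.05, as were 1.42% of all genes tested. The part of such tissue in the results below was not tested. Adrb1 itself, where a point mutation leaves the level of the gene no check of the genotype, had 36.8 ± 4.2 and 35.0 ± 3.71 CPM (SD, n = 4 each). In bulk tissue, fewer cells of a type and less RNA per cell cannot be told apart.

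No difference between the genotypes was detected for any of the 9 matrix genes. By edgeR's quasi-likelihood test, 0 of the 9 had an unadjusted p-value under 0.05, where 2.8% of the 17195 genes tested did (1.42% higher and 1.37% lower in Adrb1+/m;PS19 mice), and 0 had an adjusted p-value under 0.05 over all genes tested, as did 0 genes in the whole table. DESeq2 and limma-voom also gave 0 of 9 at an unadjusted p-value under 0.05, beside 1.65% and 2.86% of all genes tested. Normalized counts of the genotypes overlapped for all 9, and 2.02% of all genes tested did not overlap (1.02% higher and 1% lower in Adrb1+/m;PS19 mice). The labels name no litters, and these p-values measure the spread between the mice sequenced. Log2 fold changes in Adrb1+/m;PS19 vs. PS19 mice ran from -0.20 for Acan to 0.30 for Has3, 3 positive and 6 negative, with a median of -0.04 beside 0.00046 over all genes tested. The size of these fold changes had a median of 0.05, beside 0.07 over all genes tested.

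**Figure D1:**
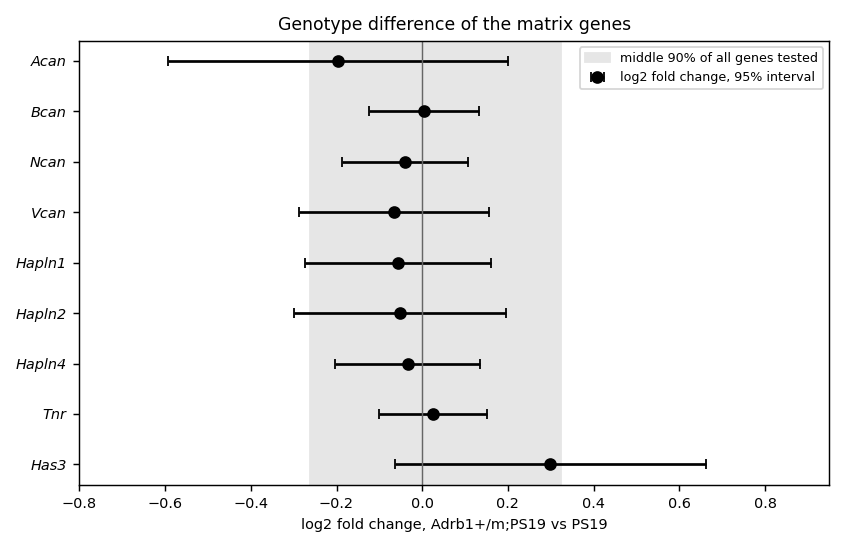
Log2 fold change of each matrix gene in Adrb1+/m;PS19 vs. PS19 mice (x axis), with its 95% interval from edgeR's standard error, over the band that holds the middle 90% of all genes tested (-0.262 to 0.323). Each interval includes 0, and those of Bcan, Ncan and Tnr are the narrowest while those of Acan and Has3 are the widest.

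Among the lecticans, brevican had the tightest values. Bcan had 261, 233, 227 and 257 CPM in PS19 mice m677, m668, m665 and m659 and 264, 236, 245 and 235 CPM in Adrb1+/m;PS19 mice m671, m661, m660 and m658. The highest and the lowest mouse differed 1.16-fold, and high and low mice were found in both genotypes. Means were 244 ± 16.7 and 245.0 ± 13.5 CPM (SD, n = 4 mice each), a log2 fold change of 0.004 ± 0.06 (SE; unadjusted p = 0.946). The 95% interval of the difference was -8.21% to 9.56%.

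Neurocan, a lectican of astrocytes and neurons in the young and adult brain, was expressed at a similar count. Ncan had 202, 245, 212 and 220.0 CPM in PS19 mice m677, m668, m665 and m659 and 221, 196, 205 and 232 CPM in Adrb1+/m;PS19 mice m671, m661, m660 and m658. Its highest values were in m668 and m658, one mouse of each genotype, and these were also the mice with the most Ttr. The log2 fold change was -0.04 ± 0.07 (SE; edgeR, unadjusted p = 0.561), and the 95% interval ran from -12.2% to 7.63%. Versican, the lectican of precursor cells and vessels as well as of nodes, had between 21.0 and 24.4 CPM in PS19 mice and between 17.8 and 24.5 CPM in Adrb1+/m;PS19 mice. The lowest Vcan value, that of mouse m661, stood alone below 20 CPM, and the other 7 mice overlapped. Its log2 fold change was -0.07 ± 0.10 (SE; unadjusted p = 0.529), and the interval was -18.1% to 11.3%.

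Aggrecan, the core protein most selective for perineuronal nets, was counted rarely. Acan had 62, 63, 102 and 94 counts in PS19 mice m677, m668, m665 and m659 and 71, 65, 79 and 80 counts in Adrb1+/m;PS19 mice m671, m661, m660 and m658. This corresponds to 3.80, 4.35, 4.81 and 5.66 CPM and to 4.26, 3.11, 4.42 and 4.53 CPM. The lowest mouse was an Adrb1+/m;PS19 mouse and the highest a PS19 mouse, but 3 of the 4 Adrb1+/m;PS19 mice lay within the range of the PS19 mice. The log2 fold change was -0.20 ± 0.18 (SE; unadjusted p = 0.306), with a 95% interval from -33.7% to 14.9%. It was -0.09 without m659 and -0.08 without m661, the highest and the lowest mouse. Counting alone gives a coefficient of variation of 11.4% at this depth, and the mice of a genotype varied by 16.5%.

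**Figure D2:**
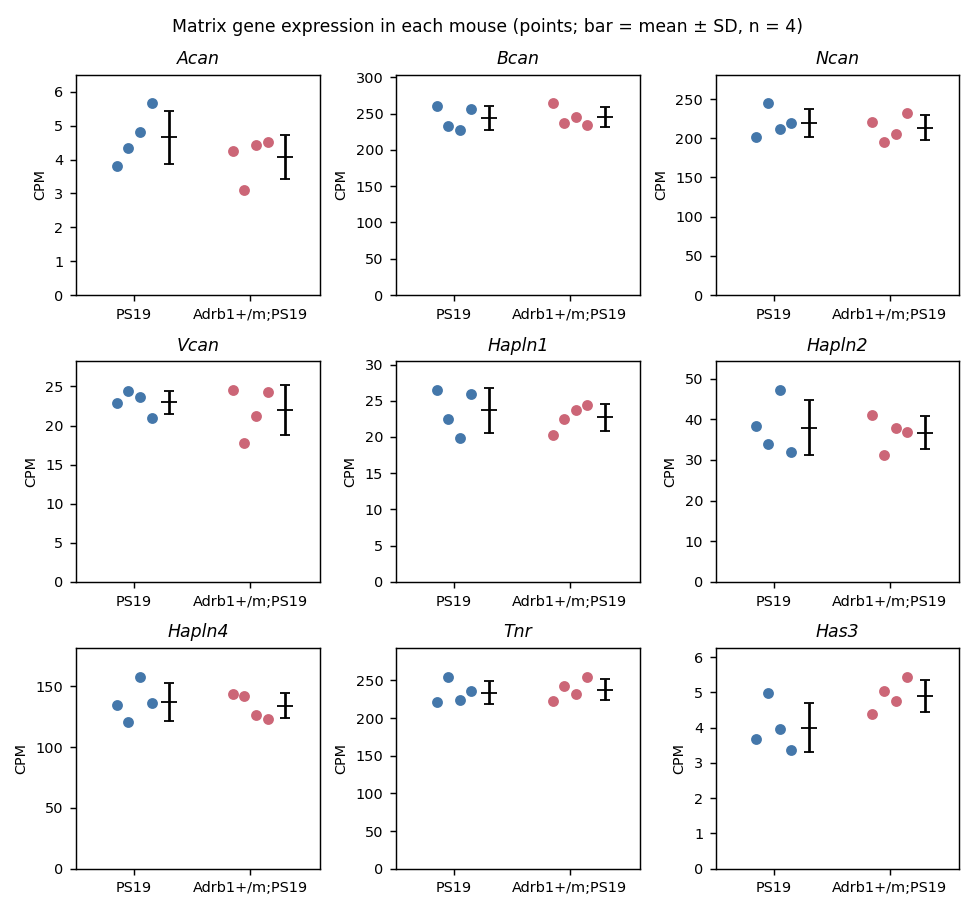
Expression of the 9 genes (y axis, CPM from 0) in each of the 4 PS19 and 4 Adrb1+/m;PS19 mice, 1 point per mouse, with the mean ± SD beside the points. The genotypes overlap in every panel; in Has3 only PS19 mouse m668 lies inside the range of the Adrb1+/m;PS19 mice.

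Link protein genes also overlapped between the genotypes. Hapln4, the link protein of perineuronal nets in the hindbrain and other neurons, had 135, 120.2, 158 and 136 CPM in PS19 mice m677, m668, m665 and m659 and 144, 142, 127 and 123 CPM in Adrb1+/m;PS19 mice m671, m661, m660 and m658. Both ends of this range were PS19 mice, with the Adrb1+/m;PS19 mice between them. Means of 137 ± 15.4 and 134 ± 10.5 CPM (SD, n = 4 each) gave a log2 fold change of -0.03 ± 0.08 (SE; edgeR, unadjusted p = 0.672). Hapln1, the cartilage link protein that also stabilizes perineuronal nets, had 26.5, 22.5, 19.8 and 25.9 CPM in PS19 mice and 20.2, 22.5, 23.8 and 24.4 CPM in Adrb1+/m;PS19 mice, in the same order of mice. The 4 mice with the most Hapln1, m677, m659, m658 and m660, 2 of each genotype, were also the 4 with the most Gfap (748 to 838 CPM, against 182 to 354 CPM in the other 4); the relations of Hapln1 to whole marker lists, none of which passed the adjustment, are given below. Between the genotypes its log2 fold change was -0.06 ± 0.10 (SE; unadjusted p = 0.590).

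Hapln2, the link protein that oligodendrocytes place at nodes of Ranvier, varied most among the link proteins. It had 38.5, 33.9, 47.2 and 32.0 CPM in PS19 mice m677, m668, m665 and m659 and 41.0, 31.1, 37.8 and 36.9 CPM in Adrb1+/m;PS19 mice m671, m661, m660 and m658. Mouse m665 stood highest, and the remaining PS19 mice fell within the range of the Adrb1+/m;PS19 mice. The log2 fold change was -0.05 ± 0.11 (SE; edgeR, unadjusted p = 0.655; 95% interval -18.8% to 14.5%). Mice of a genotype varied by 14.9% in Hapln2, where counting alone gives 3.88%.

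Tnr, the trimeric cross-linker of the lecticans, was as tight as Bcan. It had 222, 254, 224 and 236 CPM in PS19 mice m677, m668, m665 and m659 and 222, 243, 233 and 255 CPM in Adrb1+/m;PS19 mice m671, m661, m660 and m658. Each genotype held both a mouse near the bottom and a mouse at the top of this range, m668 and m658 being the highest. The log2 fold change was 0.03 ± 0.06 (SE; edgeR, unadjusted p = 0.676), with a 95% interval of -6.78% to 11.1%.

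Has3, which encodes a hyaluronan synthase, had the largest difference of the 9 and still did not pass. It was counted 60, 72, 84 and 56 times in PS19 mice m677, m668, m665 and m659 and 73, 105, 85 and 96 times in Adrb1+/m;PS19 mice m671, m661, m660 and m658. In CPM these were 3.67, 4.97, 3.97 and 3.37 against 4.38, 5.03, 4.76 and 5.43, so that m668 was the single PS19 mouse above any Adrb1+/m;PS19 mouse. Means of 4.00 ± 0.693 and 4.90 ± 0.444 CPM (SD, n = 4 each) gave a log2 fold change of 0.30 ± 0.17 (SE; edgeR, unadjusted p = 0.0994, adjusted p = 0.9996; 2-sided exact permutation test, p = 0.0857, where 4 against 4 allow 0.0286 at the least). The interval ran from -4.38% to 58.3%. Without m668 the log2 fold change was 0.41 with an unadjusted p of 0.0329 in edgeR. In that fit 3.44% of all genes tested had an unadjusted p under 0.05. The genotypes then no longer overlapped, which is easier to reach with fewer mice. Mouse m668 thus decides on which side of the threshold Has3 falls.

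Per length of transcript, the members covered a wide range of levels. On the TPM scale (the length-scaled share of all transcripts, from the counts and the deposited gene lengths; mean ± SD over 8 mice), Bcan was highest at 217 ± 12.0, followed by Hapln4 at 125 ± 11.5, Ncan at 109 ± 7.75, Tnr at 66.2 ± 3.78, Hapln2 at 56.8 ± 8.02, Hapln1 at 14.2 ± 1.53, Vcan at 5.61 ± 0.561, Has3 at 2.52 ± 0.406 and Acan at 2.11 ± 0.366. The top member was 103-fold above the bottom member. In 5 of the 8 steps down this order no mouse overlapped, and the exceptions were Hapln4 and Ncan, Tnr and Hapln2, and Has3 and Acan, each of which was in the stated order in 6 of 8 mice. Bcan stood above 96.0% of all genes tested and Acan above 12.9%. The deposited length counts all annotated exons of a gene, so a gene whose cortical transcripts use few of them has its level understated.

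**Figure D3:**
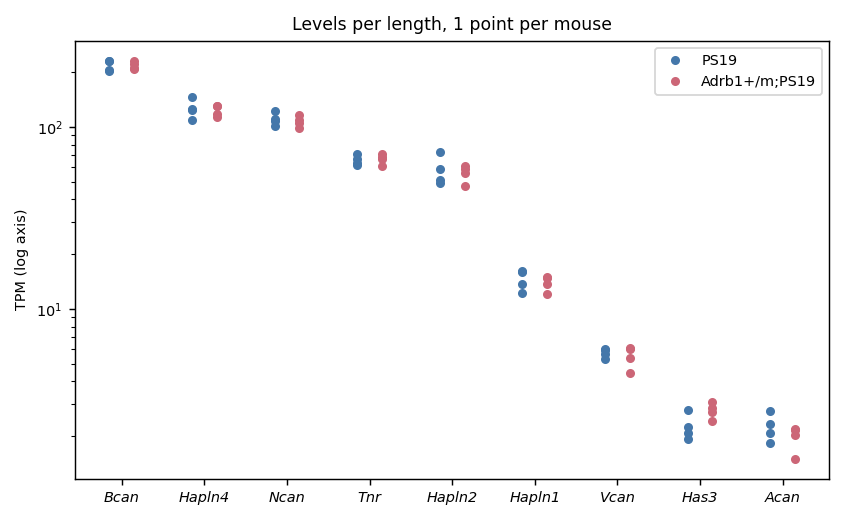
Level per length of each gene (TPM, log axis) in the 8 mice, 1 point per mouse coloured by genotype and ordered by mean level. The genes span from about 217 TPM for Bcan to 2.11 TPM for Acan, and the genotypes overlap at every step, in Has3 only through PS19 mouse m668.

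The makeup of the lectican and link protein transcripts was compared next. Of the summed lectican TPM, Bcan took 64.7% ± 2.88 in PS19 and 65.5% ± 1.97 in Adrb1+/m;PS19 mice (SD, n = 4 each), Ncan 32.9% ± 2.77 and 32.2% ± 1.79, Vcan 1.72% ± 0.156 and 1.65% ± 0.176, and Acan 0.672% ± 0.113 and 0.593% ± 0.0830. Of the summed link protein TPM, Hapln4 took 63.6% ± 1.58 and 63.8% ± 3.08, Hapln2 29.0% ± 2.36 and 28.9% ± 2.84, and Hapln1 7.41% ± 1.42 and 7.24% ± 0.926. These differences were smaller than the spread between mice in every case.

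Among the 36 pairs, 0 had a correlation of log2 CPM with an adjusted p-value under 0.05 (exact permutation test of Pearson's r, Benjamini-Hochberg over the 36, smallest adjusted p = 0.565), and 1 had an unadjusted p under 0.05. That pair was Ncan and Vcan, with r = 0.70 (exact permutation p = 0.0457, adjusted p = 0.565) and Spearman's rho = 0.76 (exact permutation p = 0.0368, adjusted p = 0.833) over 8 mice. Without the 2 mice farthest from the median of Ncan, r was 0.44. The neighbouring genes Hapln4 and Ncan, Bcan and Hapln2, and Hapln1 and Vcan were not among the pairs with an unadjusted p under 0.05.

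Beside scores of 10 cell types, 90 relations in all, 0 relations of a member had an adjusted p-value under 0.05 (exact permutation tests of Pearson's r, smallest adjusted p = 0.164) and 9 had an unadjusted p under 0.05. The highest Tnr value, 255 CPM in m658, was at an oligodendrocyte score of -0.16, and the lowest, 222 CPM in m677, at a score of 0.21. For this relation r was -0.90 (exact permutation p = 0.00365, adjusted p = 0.164), rho was -0.88 (exact permutation p = 0.00724, adjusted p = 0.326), and r was -0.86 without the 2 mice farthest from the median score. Hapln2, which oligodendrocytes make, went the other way, with r = 0.71 (exact permutation p = 0.0444, adjusted p = 0.419), rho = 0.76 (exact permutation p = 0.0368, adjusted p = 0.473) and r = 0.56 without those 2 mice. Hapln4, a link protein of neurons, had a positive relation of like size, with r = 0.74 (exact permutation p = 0.0358, adjusted p = 0.419), rho = 0.74 (exact permutation p = 0.0458, adjusted p = 0.516) and r = 0.38 without them. Ncan followed the score of 5 choroid plexus genes, with r = 0.89 (exact permutation p = 0.00223, adjusted p = 0.164), rho = 0.95 (exact permutation p = 0.00114, adjusted p = 0.103) and r = 0.89 without the 2 mice farthest from the median. Both Ncan and Vcan also followed the striatal neuron score: Ncan had r = 0.72 (exact permutation p = 0.0478, adjusted p = 0.419), rho = 0.81 (exact permutation p = 0.0218, adjusted p = 0.473) and r = 0.74 without 2 mice. For Vcan r was 0.71 (exact permutation p = 0.0427, adjusted p = 0.419), rho 0.81 (exact permutation p = 0.0218, adjusted p = 0.473) and r 0.84 without 2 mice. Hapln1 was related to several scores at once. Its r was 0.77 with the vascular and meningeal score (exact permutation p = 0.0263, rho = 0.62 with p = 0.115, r = 0.77 without 2 mice) and 0.75 with the astrocyte score (exact permutation p = 0.0431, rho = 0.71 with p = 0.0576, r = 0.68 without 2 mice). With the microglia score r was 0.72 (exact permutation p = 0.0504, rho = 0.71 with p = 0.0576, r = 0.71 without 2 mice), and with the oligodendrocyte precursor score 0.71 (exact permutation p = 0.0559, rho = 0.79 with p = 0.0279, r = 0.87 without 2 mice). These 4 relations of Hapln1 had an adjusted p of 0.419 each for r in the exact permutation test and 0.473 to 0.680 for rho. The relation of Tnr to the choroid plexus score (r = 0.75, exact permutation p = 0.0338, adjusted p = 0.419; rho = 0.55, p = 0.171, adjusted p = 0.681) rested on the 2 mice farthest from the median, without which r was -0.07. Has3 rose with the basal forebrain cholinergic score, which did not overlap between the genotypes (r = 0.68, exact permutation p = 0.0675, adjusted p = 0.434). Its rho was 0.76 (exact permutation p = 0.0368, adjusted p = 0.473), and r was 0.52 without 2 mice. With values centred within each genotype, this r was 0.28 (permutation p = 0.497, approximate because centred values were also moved between the genotypes). These relations did not pass the adjustment, and the part of these tissues in the levels of the members was not tested.

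**Figure D4:**
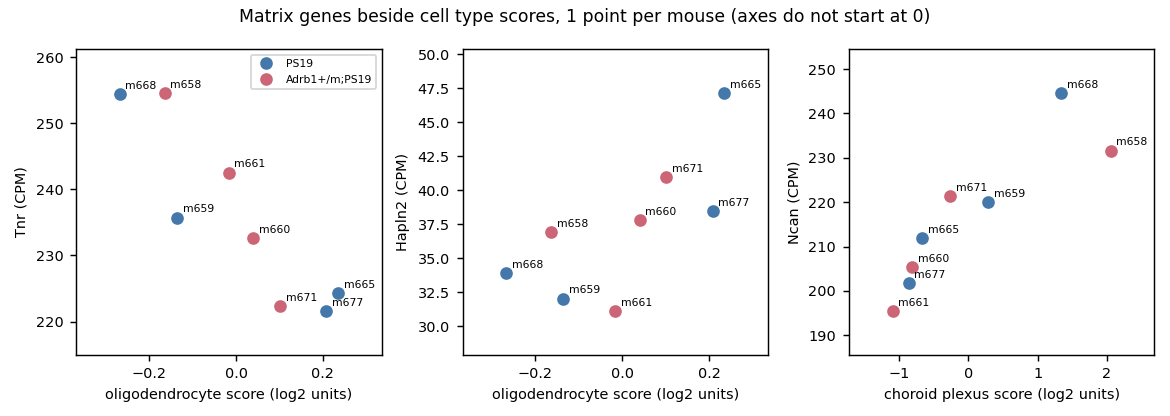
Tnr and Hapln2 beside the oligodendrocyte score and Ncan beside the choroid plexus score (y axes in CPM, x axes in log2 units around the mean of the mice; neither axis starts at 0), 1 labelled point per mouse. Tnr falls and Hapln2 rises along the oligodendrocyte score, mice m668 and m658 are at the top of the Ncan panel, and the genotypes are mixed along each axis.

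The parvalbumin interneuron list, whose cells carry the nets, had a median log2 fold change of 0.04 over 10 genes. Its summed level was 1412 to 1466 CPM in PS19 and 1481 to 1536 CPM in Adrb1+/m;PS19 mice, without overlap, and its score was -0.081 to 0.0090 against 0.0064 to 0.054, with a small overlap (2-sided exact permutation p = 0.0571). Pvalb itself had 57.6 ± 14.4 CPM in PS19 and 58.5 ± 8.31 CPM in Adrb1+/m;PS19 mice (SD, n = 4 each), a log2 fold change of 0.02 ± 0.15 (SE; edgeR, unadjusted p = 0.917). The 2 genes of the list with an unadjusted p under 0.05, Gad2 (0.24) and Slc32a1 (0.18), encode a GABA-synthesizing enzyme and the vesicular GABA transporter. They serve all inhibitory neurons, as does Gad1, which encodes the other GABA-synthesizing enzyme. Mean levels in PS19 and Adrb1+/m;PS19 mice were 247 and 292 CPM for Gad2, 392 and 409 for Gad1, and 102.5 and 115.8 for Slc32a1. The gap in the summed level thus lay largely in these general inhibitory genes. Of all 10 genes, 7 had positive and 3 negative values. Oligodendrocyte, oligodendrocyte precursor, astrocyte, microglia, vascular, striatal and choroid plexus lists had 0 genes with an unadjusted p under 0.05 in edgeR, while all 8 striatal markers had positive values, with a median log2 fold change of 0.33 (0.19 to 0.34) and a summed level of 943.5 to 1885 CPM in PS19 and 974 to 2113 CPM in Adrb1+/m;PS19 mice. Of the 8 excitatory neuron markers 7 had negative values (median -0.14), and 3 of them, Slc17a7, Neurod6 and Tbr1, had an unadjusted p under 0.05. Over all genes tested, 50.2% had a positive value and 2.8% an unadjusted p under 0.05. Markers of a list come from the same mice and are not separate observations. With the parvalbumin score, r was -0.42 for Acan (exact permutation p = 0.285), 0.55 for Hapln4 (p = 0.159) and -0.49 for Tnr (p = 0.219). Without the 2 mice farthest from the median score these were -0.82, 0.14 and 0.19. The r largest in size was that of Ncan, -0.61 (exact permutation p = 0.104), and it was -0.53 without those 2 mice. Values of the remaining members lay between -0.36 (Hapln1) and 0.34 (Hapln2). Centred within each genotype, r was -0.21 for Acan (permutation p = 0.607), 0.89 for Hapln4 (p = 0.00377) and -0.86 for Tnr (p = 0.00687). It was -0.67 for Ncan (permutation p = 0.0694) and -0.65 for Has3 (p = 0.0823), and all these p-values are unadjusted. The permutations also moved centred values between the genotypes, so the p-values of centred data are approximate. After this centring 14 of the 90 relations had an unadjusted p under 0.05 and 0 an adjusted one. The part of these cell types in the values of the matrix genes was not tested.

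Genes that make, cut and bind the matrix were read from 5 lists. Of 81 genes tested, 1 had an unadjusted p under 0.05 with increased and 0 with decreased expression, or 1.23%, against 2.8% of all genes tested, and their median log2 fold change was -0.02. Of the other hyaluronan genes, Has1 had a log2 fold change of -0.10 ± 0.24 (SE), the hyaluronidase gene Hyal2 one of -0.06 ± 0.13 and Cd44, a hyaluronan receptor, one of -0.11 ± 0.24. Has2 had 0 to 17 counts per mouse and was not tested. The link protein gene Hapln3, next to Acan, had 9 to 21 counts and a log2 fold change of 0.04 ± 0.33 (SE).

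Other matrix proteins were read the same way. Ptprz1, whose secreted form is phosphacan, had 259 ± 22.6 and 261 ± 28.5 CPM (SD, n = 4 each), a log2 fold change of 0.01 ± 0.08 (SE). Cspg5, which encodes neuroglycan C, had a log2 fold change of -0.06 ± 0.05 (SE), and Tnc, the tenascin of immature and injured tissue, one of -0.17 ± 0.27. In chondroitin sulphate synthesis, the sulphotransferase genes Chst3 and Chst11 had log2 fold changes of -0.22 ± 0.18 and -0.03 ± 0.07 (SE). Csgalnact1 and Chsy3, which start and extend the chains, had log2 fold changes of 0.08 ± 0.09 and 0.02 ± 0.11 (SE). In edgeR's test all 7 had unadjusted p-values above 0.05.

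**Figure D5:**
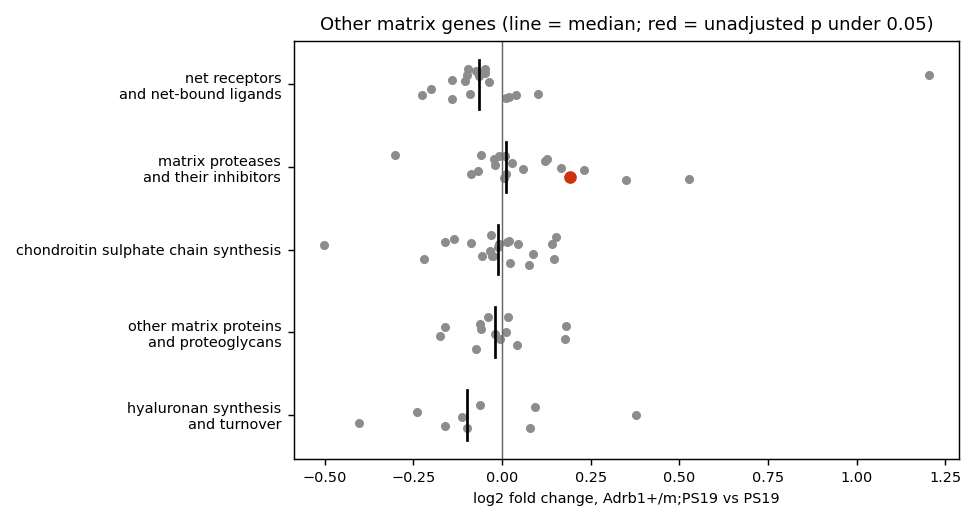
Log2 fold changes (x axis, Adrb1+/m;PS19 vs. PS19) of the 81 other matrix genes tested, 1 point per gene in 5 lists, with a black line at the median of each list and the gene with an unadjusted p under 0.05 in red. The list medians lie between -0.10 and 0.01, Timp3 is the red point, and the point at 1.20 is Otx2.

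The gene that passed the unadjusted threshold was Timp3, an inhibitor of the proteases that cut lecticans. It had 62.5, 57.4, 55.7 and 68.5 CPM in PS19 mice m677, m668, m665 and m659 and 62.5, 71.3, 73.8 and 71.3 CPM in Adrb1+/m;PS19 mice m671, m661, m660 and m658. The genotypes overlapped because PS19 mice m677 (62.53 CPM) and m659 lay above Adrb1+/m;PS19 mouse m671 (62.51 CPM). The log2 fold change was 0.19 ± 0.07 (SE; edgeR, unadjusted p = 0.0212, adjusted p = 0.9996), and the unadjusted p lay above 0.05 without m668 (0.0617), m665 (0.0700), m660 (0.0666) or m658 (0.0501). Agrn and Chst7 (both lower) and Mmp9 (higher in Adrb1+/m;PS19 mice), named after their values were seen, did not overlap between the genotypes, 3 of 81 beside the 2.02% of all genes, with edgeR's unadjusted p = 0.121, 0.0572 and 0.0684. Adamts4 and Adamts5, which encode the lectican-cutting aggrecanases, had log2 fold changes of 0.06 ± 0.08 and 0.13 ± 0.20 (SE).

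Among receptors and ligands of the net, Ptprs, a receptor for chondroitin sulphate, had a log2 fold change of -0.06 ± 0.05 (SE), Sema3a, a guidance protein held in nets, one of -0.05 ± 0.07, and Nptx2, a pentraxin secreted onto interneurons, one of -0.14 ± 0.12. Otx2 encodes a transcription factor that nets bind and that the choroid plexus secretes. It had the largest value of all 81 genes, 1.20 ± 0.59 (SE, with an unadjusted p = 0.0629 in edgeR). Its counts were 12, 15, 6 and 8 in PS19 mice m677, m668, m665 and m659 and 8, 15, 18 and 62 in Adrb1+/m;PS19 mice m671, m661, m660 and m658. Only m658 stood apart, the mouse with the most Ttr, and the other 7 mice overlapped between the genotypes.

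For each member the 10431 other genes with a mean of at least 10 CPM were searched for the 3 whose log2 CPM was most alike over the 8 mice. The best Pearson's r lay between 0.954 and 0.994, values picked as the highest of so many genes, so they are descriptions without a test. Has3 was most like Vldlr, a lipoprotein and reelin receptor gene (r = 0.994, rho = 1), and Ncan most like Sdk1, a cell adhesion gene (r = 0.985, rho = 0.976). Hapln1 was most like Ift122, a gene of transport in cilia (r = 0.969, rho = 0.929), followed by Timp4, another inhibitor of matrix proteases (r = 0.960, rho = 0.976). Tnr was most like Sptlc2, a gene of sphingolipid synthesis (r = 0.960, rho = 0.952), followed by Map2, the dendritic microtubule gene (r = 0.945, rho = 0.881).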

How the data were processed

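RNA-seq was performed on the cortex of 8 mice. The authors aligned clean reads to GRCm38/mm10 with HISAT2 2.0.5, counted them per Ensembl gene with featureCounts 1.5.0-p3 and deposited raw counts with a gene length column, which is no measurement; strand and multiple-mapping settings are not given in the sources used here. Groups were taken from the genotype labels. Nothing names the litter of a mouse. Same-genotype libraries differed by more than sampling noise (chi-square of 4.82 to 10.1 per degree of freedom).

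Of 54532 genes, 17195 passed edgeR's filterByExpr. Counts were normalized with TMM factors and compared with edgeR 4.0.16 (R 4.3.3; glmQLFit and glmQLFTest, 2-sided, genotype as the only term), and p-values were adjusted by Benjamini-Hochberg across the whole table of genes that passed; a standard error is the log2 fold change over the square root of F. Log2 CPM used a prior count of 2. TPM used the deposited lengths. The fit was tested on simulated data. Alternatives were DESeq2 1.42.0, limma-voom (limma 3.58.1), other filters and size factors, 1 surrogate variable (sva 3.50.0) and each mouse left out. The members, lists and tests were chosen with earlier results of these data known. Genes were named by rule: the members, 18 listed matrix genes and any listed matrix gene with an unadjusted p under 0.05. The rule also took 1 marker per cell type, Adrb1, and the 3 genes most alike to each member. Agrn, Chst7, Mmp9, Gad1, Gad2, Slc32a1, Neurod6, Tbr1 and Chtf8 were added after their values were seen. Promoters are from RefSeq. Depth of 14653222 to 21223754 counts leaves Acan and Has3 with wide intervals, and mice are the unit of every test.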

Additional observations from a re-analysis of the deposited data

Results flagged for a closer look

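In 7 of 90 sets of 4 mice, 1 mouse lay far from the other 3 of its genotype, a gap that chance gives in about 1 set of 20. Among the shares, Adrb1+/m;PS19 mouse m658 had 62.6% Bcan and 34.9% Ncan of the lectican TPM, where the other 3 reached 66.9% and went down to 31.2%, and it is 1 observation, since the shares sum to a whole. Hapln2 made up 24.7% of the link protein TPM in Adrb1+/m;PS19 mouse m661, against up to 30.5% in the others. Among other matrix genes, Has1 was at 1.80 CPM in Adrb1+/m;PS19 mouse m671, Chst3 at 3.19 CPM in PS19 mouse m659, Chst11 at 54.0 CPM in Adrb1+/m;PS19 mouse m661 and Csgalnact1 at 25.2 CPM in the same mouse.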

How the results depend on the processing

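No paired analysis was possible because no label links a mouse of one genotype to a mouse of the other. With each mouse left out, 0 to 1 of the 9 matrix genes had an unadjusted p under 0.05 (2.47% to 3.86% of all genes). The number without overlap was also 0 to 1. Both times it was Has3 without PS19 mouse m668 (log2 fold change 0.41), where 3.44% of all genes had such a p. Leaving out m668 and m658 together, chosen after seeing the data for their choroid plexus score, gave 0 (beside 2.71%) and 1, Has3. The share of all genes without overlap was not computed with mice left out. Overlap is easier to avoid with fewer mice. All 72 fold changes of the 9 genes under the 8 settings other than a single left-out mouse had the same sign and stayed short of the threshold. Of 72 with a mouse left out, 11 changed sign, all within small values: Bcan ran from -0.035 to 0.038 (-0.017, -0.029 and -0.035 in the 3 that turned), Ncan from -0.083 to 0.015, Vcan from -0.12 to 0.024, Hapln1 from -0.14 to 0.0035, Hapln2 from -0.13 to 0.075 (0.020 and 0.075), Hapln4 from -0.092 to 0.041 (0.0031 and 0.041) and Tnr from -0.0092 to 0.067. Acan (-0.28 to -0.083) and Has3 (0.23 to 0.41) kept their sign. Of the other matrix genes, 1 of 81 tested had an unadjusted p under 0.05, beside 2.8% of all genes. This was 3 with DESeq2 (1.65% of all genes) and 8 with no filter beyond 1 count (4.06%). It was 3 with at least 10 counts in every mouse (2.86%) and 2 with 1 surrogate variable (3.56%). With a mouse left out it was 1 to 6 (2.47% to 3.86%). Without m668 and m658 together it was 0 (2.71%), where Timp3 had an unadjusted p of 0.114 in edgeR. How many listed genes were tested in the settings other than the main fit was not counted. The causes were not tested. With no filter 1366 of 33614 genes (4.06%) had an unadjusted p under 0.05, against 481 of 17195 (2.8%). An adjusted p under 0.05 was reached by 66 genes with no filter, against 0. None of these were among the 9. Correlations of pairs and of members with cell types at an adjusted p under 0.05 stayed at 0 in every setting, and those at an unadjusted p under 0.05 numbered 0 to 3 and 4 to 14.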
